A study of Mus musculus with 8 samples.

Results

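The genes described here encode the nuclear pore complex and the soluble transport machinery that carries proteins and RNA through it. They were chosen by name on the platform annotation: every gene with a probe set of a single symbol that starts with Nup, Kpna, Ipo, Xpo or Tnpo and a number, together with Kpnb1, Ran, Rangap1, Ranbp1, Rcc1, Nxf1 and Cse1l, which gave 47 of 18193 genes on the array. Tpr, which was also on the list of names, is not analysed here. For each gene the probe set of highest mean log2 signal over all 8 arrays was used, and 35 of the 47 genes had more than 1 among 121 probe sets in all. The samples were 4 groups with 2 Affymetrix Mouse Genome 430 2.0 arrays each, and the question was which transcripts depend on the zinc finger transcription factor Zfx in 2 kinds of mouse stem cell. Zfx-cko hematopoietic stem cells (HSC) came from Mx1-Cre+ Zfxflox/y mice and Zfx-flox HSC from littermates of the genotype Zfxflox/y without Cre. Mx1-Cre is driven by an interferon-inducible promoter. Both HSC groups were given pI·C, an inducer of interferon, so the deletion and the Cre transgene differ together between them. Marrow was pooled from 4 to 6 mice and taken 4 days after the last injection, and the sorted Lin- Sca-1+ c-Kit+ cells hold multipotent progenitors besides stem cells. Zfx-null and Zfx-flox embryonic stem cells (ESC) were clones grown on gelatin in medium with serum replacement and LIF; Zfx is deleted in Zfx-null cells and flanked by loxP sites in Zfx-flox cells, and the number of clones was not given in the sources used here. HSC RNA (100 ng) went through 2 rounds of linear amplification and ESC RNA (2.5 µg) through 1, so the amplification and the cell type cannot be told apart. Samples were hybridized in duplicate, so both arrays of a group may hold the same RNA. The p-values rest on the spread within these array pairs alone, and that spread may be technical.

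The nuclear pore is a ring-shaped channel built from many copies of proteins called nucleoporins: a Y-shaped scaffold and an inner ring form its frame, FG nucleoporins fill the central channel, and filaments and a basket extend to the cytoplasm and the nucleus. Cargo with a nuclear localization signal is bound by importin alpha and carried by importin beta or a related receptor, whereas exportins carry cargo out. The direction is set by the GTPase Ran, which is charged with GTP on chromatin by Rcc1 and discharged in the cytoplasm by Rangap1 and Ranbp1. In mouse ESC the importin alpha encoded by Kpna2 is known to import the pluripotency factor Pou5f1.

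Promoter stretches of some of these genes, picked by their change or by their motifs, are shown first. Rcc1 and Nup210 had the largest fall in HSC and in ESC, and Kpna4 was lower in Zfx-cko HSC and higher in Zfx-null ESC. Tnpo2 and Nup188 were picked by motif: like Ipo4, they fell in HSC and held both the Zfx core motif and an E-box. Averaging the probe sets of each gene ended the HSC calls of Tnpo2 (−0.21), Nup188 (−0.32), Ipo4 (−0.37) and Kpna4 (−0.04). Those of Tnpo2, Ipo4 and Kpna4 were also lost without single arrays, as given below. Of 2 windows of Tnpo2 the first is shown, and the bases before the start in the other held none of the 3 motifs below. Each line gives the 250 bases before the transcription start, from RefSeq on build GRCm38.p6, 5′ to 3′ on the strand of the gene. Capitals mark 3 motifs searched on both strands: AGGCCT, the core of the motif known for Zfx, CACGTG, the E-box that Myc and Usf proteins bind, and CCAAT or its reverse ATTGG, the box bound by NF-Y. No 2 of these motifs overlapped in the stretches shown.
Rcc1 (chr4:132345751-132346000, minus strand): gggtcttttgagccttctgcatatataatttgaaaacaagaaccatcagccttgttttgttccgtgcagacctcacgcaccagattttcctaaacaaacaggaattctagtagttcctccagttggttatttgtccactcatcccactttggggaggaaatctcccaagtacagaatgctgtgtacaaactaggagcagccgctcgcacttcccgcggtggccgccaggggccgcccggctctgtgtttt
Nup210 (chr6:91116827-91117076, minus strand): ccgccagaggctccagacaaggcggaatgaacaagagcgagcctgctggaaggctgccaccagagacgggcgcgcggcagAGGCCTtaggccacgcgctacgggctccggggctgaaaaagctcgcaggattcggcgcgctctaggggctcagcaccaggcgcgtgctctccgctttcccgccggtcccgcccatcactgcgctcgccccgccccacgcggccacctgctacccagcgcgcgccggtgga
Kpna4 (chr3:69127093-69127342, minus strand): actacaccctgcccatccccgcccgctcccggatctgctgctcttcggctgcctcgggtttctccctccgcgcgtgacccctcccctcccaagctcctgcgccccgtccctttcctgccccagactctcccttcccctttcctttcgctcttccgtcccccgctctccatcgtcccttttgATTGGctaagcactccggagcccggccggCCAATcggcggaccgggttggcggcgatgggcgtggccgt
Tnpo2 (chr8:85036643-85036892, plus strand): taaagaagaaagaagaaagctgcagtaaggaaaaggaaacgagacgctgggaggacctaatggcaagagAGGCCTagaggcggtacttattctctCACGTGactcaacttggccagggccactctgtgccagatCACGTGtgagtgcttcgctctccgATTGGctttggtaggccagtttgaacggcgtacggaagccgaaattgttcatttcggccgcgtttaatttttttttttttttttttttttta
Nup188 (chr2:30286166-30286415, plus strand): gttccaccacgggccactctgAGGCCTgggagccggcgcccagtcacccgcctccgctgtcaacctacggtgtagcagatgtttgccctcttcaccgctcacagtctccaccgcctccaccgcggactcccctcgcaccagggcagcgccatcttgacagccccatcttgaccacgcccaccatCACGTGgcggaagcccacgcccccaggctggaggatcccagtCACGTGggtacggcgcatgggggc

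RefSeq promoter windows, which run from 250 bases before to 50 bases after a start, were at hand for 38 of the 47 genes, and all 47 matched a RefSeq gene by identifier. AGGCCT stood in the windows of 6 of the 38 genes (15.8%), against 11.6% of 27025 genes in the table. These were Ipo4, Nup188, Nup210, Nup214, Nup98 and Tnpo2. CACGTG stood in 7 of the 38 (18.4%, against 8.09% of all genes) and CCAAT in 20 (52.6%, against 41.1%). The windows of the pore and transport genes were also richer in G and C, with a median of 65.0% over 46 windows, against 52.7% over all 32851 windows. By call, AGGCCT stood in 5 of 26 genes that were lower in Zfx-cko HSC and in 1 of 10 that did not pass there, and in 1 of 7 that were lower in Zfx-null ESC and 5 of 28 that did not pass. These are matches of letters in short windows, and binding was not measured.

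Signals are the deposited probe set intensities on a linear scale, and changes are differences of log2(signal + 14.2), fitted with limma over all probe sets and adjusted by Benjamini and Hochberg over all genes tested. The pseudocount is the 25th percentile of all values, and dim genes appear to change less on this scale than they do in signal. Of the deleted gene, all 4 probe sets annotated to Zfx alone were higher in Zfx-null ESC. The brightest, 1425972_a_at, read 477 and 547 in Zfx-null ESC, against 262 and 318 in Zfx-flox ESC (log2 change 0.79, p adjusted over probe sets 0.00137). In HSC it read 1192 and 1209 in Zfx-cko, against 696 and 752 in Zfx-flox (log2 change 0.72, p adjusted over probe sets 0.00104). A probe set annotated to Zfx together with the pseudogene Zfa-ps, 1422249_s_at, went the other way in ESC, with 1.32 and 0.878 in Zfx-null, against 285 and 298 in Zfx-flox, and lay near the floor on all 4 HSC arrays. The sources used here do not say which probe sets lie in the deleted part, so the HSC arrays give no check of the deletion. The pluripotency genes Pou5f1, Nanog, Sox2 and Tdgf1 lay under the pseudocount in both HSC groups, and all 7 measured Lin- Sca-1+ c-Kit+ markers of 9 listed lay above it there. Several marker sums moved with the genotype. Summed over 11 of 12 S phase and mitosis genes, the signal was 36497 to 36802 in Zfx-cko HSC, against 46009 to 47076 in Zfx-flox HSC, and 19486 to 19710 in Zfx-null ESC, against 27185 to 27317 in Zfx-flox ESC. In HSC the erythroid sum (4 of 6 genes) was 454 to 456 in Zfx-cko, against 2223 to 2299 in Zfx-flox. Alas2 was under the pseudocount in Zfx-cko. Most of this difference was Klf1 (319 and 330 in Zfx-cko, 1874 and 1974 in Zfx-flox). Epor was lower too (109 and 106, against 295 and 283). Hba-a1 lay near the floor in both groups (25.7 and 14.8, against 16.5 and 24.2). The Lin- Sca-1+ c-Kit+ sum was 18847 to 19005 in Zfx-cko HSC, against 7481 to 8048 in Zfx-flox HSC. Granulocyte and monocyte genes (6 of 7) summed to 11972 to 12680.0 in Zfx-cko, against 9567 to 9769 in Zfx-flox, with Itgam and Camp under the pseudocount in both. Most of that sum was Mpo (10524 and 9808 in Zfx-cko, 8299 and 8137 in Zfx-flox), whose change did not pass. Lyz2 was higher (1177 and 1153, against 494 and 438), while Elane read lower (301 and 292, against 386 and 423). The B, T and NK sum (4 of 6) was 130.02 to 160.3 in Zfx-cko, against 128 to 163 in Zfx-flox, and Cd3e was under the pseudocount in both. In ESC the fibroblast and stroma sum (7 of 7 genes) was 20546 to 21749 in Zfx-null, against 11480 to 11834 in Zfx-flox, and the endoderm sum (7 of 7) 1436 to 1456, against 673 to 684, mostly through Dab2 (1173 and 1107 in Zfx-null, 413 and 399 in Zfx-flox), while Gata4 (42.8 and 44.3, against 62.3 and 60.7) was not higher. In HSC these sums moved too. The stroma sum was 1083 to 1164 in Zfx-cko, against 422 to 431 in Zfx-flox, mostly through Pdgfrb (843 and 810, against 197 and 194). The endoderm sum was 1032 to 1168, against 541 to 550.4, mostly through Afp (971 and 903, against 377 and 414). Pdgfra (38.7 and 30.4, against 43.5 and 52.8) and Sox17 (18.6 and 23.6, against 26.3 and 27.2) were not higher there. Col3a1, Sox7 and Ttr were under the pseudocount in both HSC groups. The Gapdh control probe sets gave a 5′ over 3′ log2 ratio of −4.68 and −4.39 in Zfx-cko HSC, −4.18 and −4.25 in Zfx-flox HSC, and 0.38 to 0.44 in ESC. The part of these differences in the results below was not tested. Each array also reads a whole population, so fewer cells of a type and less RNA per cell cannot be told apart.

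Most pore and transport genes were lower in Zfx-cko HSC. Of 45 tested members, 31 fell and 2 rose in Zfx-cko HSC against Zfx-flox HSC, and 12 did not pass. Among all 12533 genes tested in HSC 19.8% were lower and 22.6% higher, 42.4% in either direction. The median log2 change was −0.31 over the 45 members and 0.03 over all genes tested, and 41 of the 45 had a negative sign. The falls covered scaffold nucleoporins, import and export receptors and the Ran cycle, and they were mostly modest: Rcc1 alone among the fallers changed at least 2-fold. The 2 members that rose were Xpo7 and Ipo9. Kpna7, a germline and early embryo importin alpha, and Nup210l, a paralog of Nup210, lay near the floor and were not tested.

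**Figure D1:**
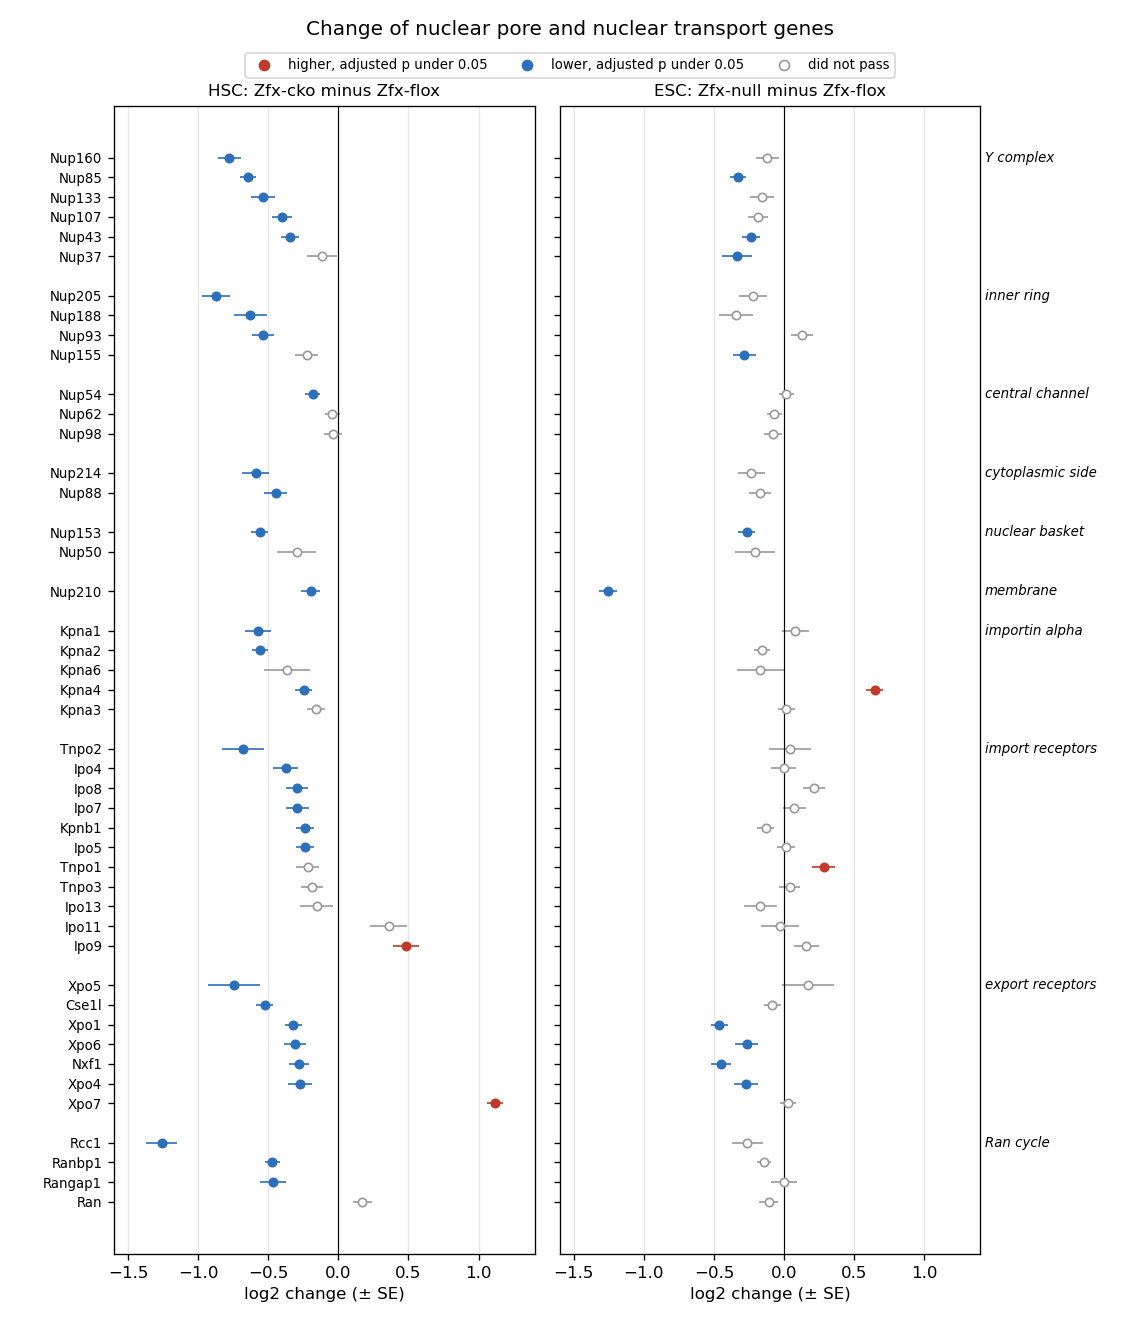
Fitted log2 change of the 45 tested members in HSC (Zfx-cko minus Zfx-flox, left) and ESC (Zfx-null minus Zfx-flox, right), with bars of 1 standard error, grouped by role; filled points passed an adjusted p of 0.05. In HSC 31 points lie left of 0 and passed, from Rcc1 at −1.26 to Nup54 at −0.18, while in ESC most points lie nearer to 0 and Nup210 stands apart at −1.26.

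Within the Ran cycle 3 of 4 genes fell in Zfx-cko HSC, beside 19.8% of all genes. Rcc1, the exchange factor that makes Ran-GTP on chromatin, read 182 and 175 on the Zfx-cko arrays, against 435 and 462 on the Zfx-flox arrays. Both Zfx-cko values were less than 50% of either Zfx-flox value (2.40-fold lower on the scale with pseudocount, log2 change −1.26 ± 0.11, adjusted p = 4.79e-05). Ranbp1, which helps to release Ran-GTP from export complexes, read 2344 and 2365 on the Zfx-cko arrays, against 3229 and 3305 on the Zfx-flox arrays (log2 change −0.47 ± 0.05, adjusted p = 0.000145). The arrays of the 2 groups were well apart here too. Rangap1, the activator of GTP hydrolysis on Ran, fell by 0.47. Ran itself, the GTPase at the centre of the cycle, did not pass: its brightest probe set read 11152 and 10257 on the Zfx-cko arrays, against 9254 and 9729 on the Zfx-flox arrays (log2 change 0.17 ± 0.07, adjusted p = 0.0809). That probe set carries the suffix _x_at, which marks probes that can match other transcripts. A probe set of Ran without such a suffix, 1460551_at, read 771 and 828 on the Zfx-cko arrays and 990.5 and 1072 on the Zfx-flox arrays (log2 change −0.36 ± 0.07, p adjusted over probe sets 0.00373), so the probe sets of Ran disagree and its direction in HSC is uncertain. The mean of all its probe sets rose by 0.27 (adjusted p = 0.0378).

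Most transcripts of the pore frame within the naming pattern were lower in Zfx-cko HSC. Past the threshold were 5 of 6 Y complex genes and 3 of 4 inner ring genes, beside 19.8% of all genes lower. Outside the pattern the Y complex subunit Seh1l rose, as given below. Nup160, a subunit of the Y complex, read 1141 and 1219 on the Zfx-cko arrays, against 2044 and 2023 on the Zfx-flox arrays (log2 change −0.78 ± 0.08, adjusted p = 0.000125). Nup85, another subunit of this scaffold, read 1209 and 1161 on the Zfx-cko arrays, against 1859.5 and 1859.8 on the Zfx-flox arrays (log2 change −0.64 ± 0.06, adjusted p = 5.03e-05). The Zfx-flox arrays of both genes agreed closely and lay far above the Zfx-cko arrays. Nup133, Nup107 and Nup43 also fell, with log2 changes of −0.54, −0.40 and −0.35, while Nup37 stood at −0.12 ± 0.11 and did not pass. Nup205, a large protein of the inner ring, read 1277 and 1609 on the Zfx-cko arrays, against 2689 and 2589 on the Zfx-flox arrays (log2 change −0.87 ± 0.10, adjusted p = 0.000184). Its 2 Zfx-cko arrays differed more from each other than the 2 Zfx-flox arrays did, and both lay far below them. Nup188, the paralog of Nup205, read 108 and 89.1 on the Zfx-cko arrays, against 172 and 147 on the Zfx-flox arrays (log2 change −0.63 ± 0.12, adjusted p = 0.00325). Nup93, which joins both to the ring, changed by −0.54, and Nup155 did not pass at −0.23 ± 0.08. Beside these falls, the S phase and mitosis sum was lower in Zfx-cko HSC as given above, and its part was not tested.

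In the channel and its 2 faces the HSC calls depended on the probe set for several genes. Nup214, an FG nucleoporin of the cytoplasmic face that takes part in mRNA and protein export, read 543 and 656 on the Zfx-cko arrays, against 868 and 944 on the Zfx-flox arrays (log2 change −0.59 ± 0.10, adjusted p = 0.00138). Its partner Nup88 changed by −0.45 and also passed. Of the central channel, Nup54 fell by 0.18 and its probe set 1433580_at was lower too (−0.40 ± 0.08, p adjusted over probe sets 0.00514). Nup62, the FG nucleoporin at the centre of the channel, read 4725 and 4843 on the Zfx-cko arrays, against 4819 and 5037 on the Zfx-flox arrays. It did not pass (log2 change −0.04 ± 0.05, adjusted p = 0.575), its groups were close together, and its sign turned with quantile normalization. Nup62 also had lower probe sets, 1415925_a_at (−0.33 ± 0.06, p adjusted over probe sets 0.00267) and 1415926_at (−0.37 ± 0.07, p adjusted over probe sets 0.00333). Nup98, an FG nucleoporin found on both faces, stood at −0.04 ± 0.07 and did not pass, whereas its probe set 1439154_at was lower (−0.53 ± 0.10, p adjusted over probe sets 0.0038). On the nuclear side Nup153, an FG protein of the basket, changed by −0.56 and passed, whereas Nup50, which helps to free cargo from importin alpha, did not pass (−0.30 ± 0.14) although its probe set 1450722_at was lower (−0.92 ± 0.15, p adjusted over probe sets 0.00147). Nup210, a pore protein that spans the nuclear membrane, fell by 0.20 (adjusted p = 0.0412).

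**Figure D2:**
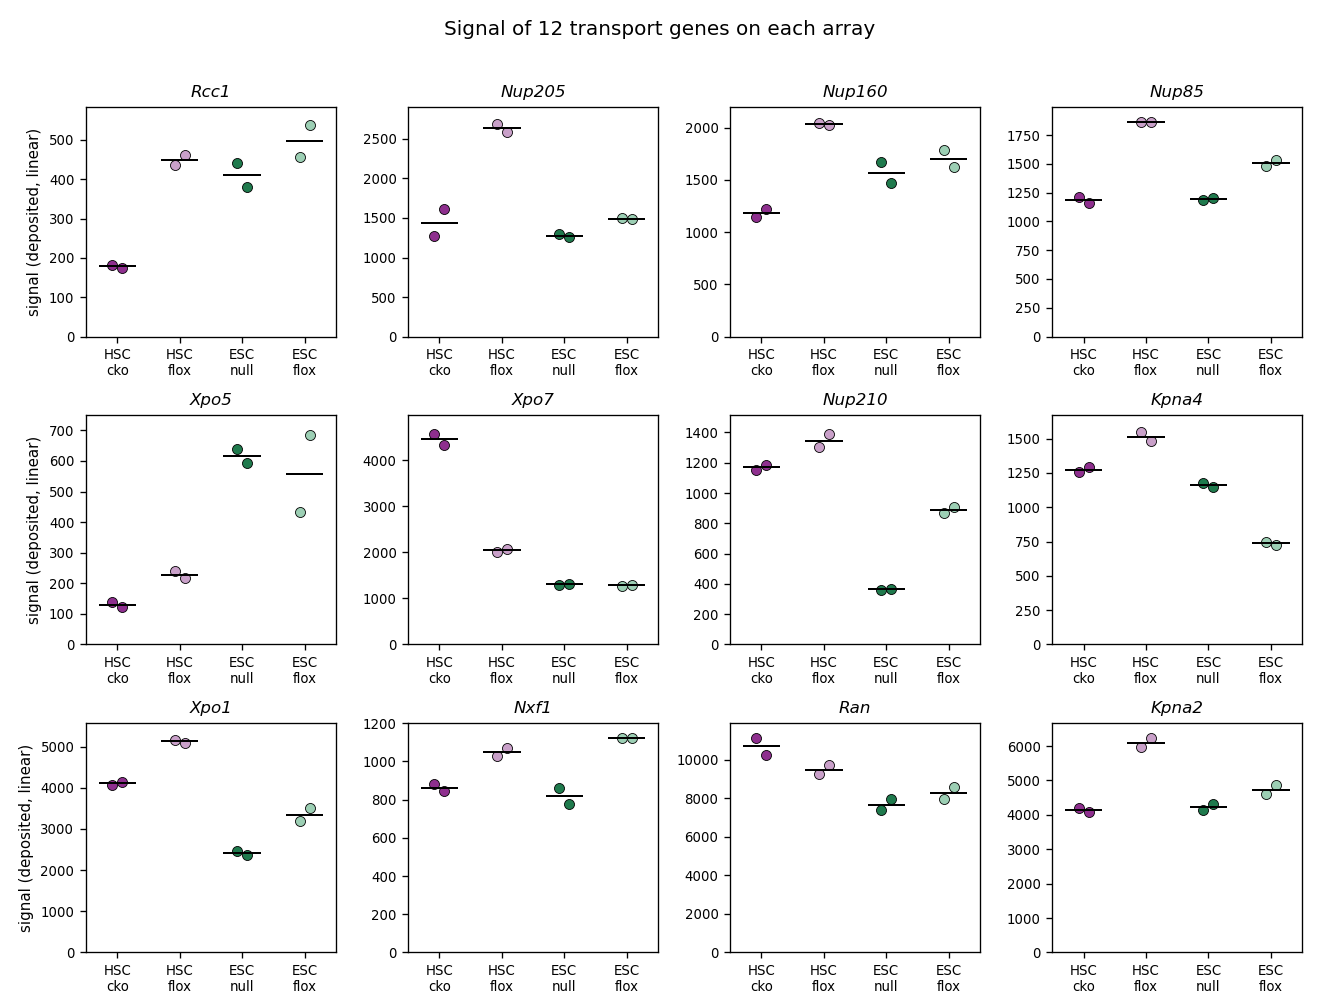
Deposited signal (linear axis from 0) of 12 genes on each of the 8 arrays, with points for arrays and a line for the group mean; within each cell type Zfx-cko or Zfx-null stands left of Zfx-flox. Rcc1, Nup205, Nup160, Nup85 and Xpo5 are lower on both Zfx-cko HSC arrays, Xpo7 is higher there, and Nup210 is lower and Kpna4 higher on both Zfx-null ESC arrays.

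Among the import receptors 6 of 11 fell and 1 rose in Zfx-cko HSC, and 3 of 5 importin alpha genes fell. Of all genes 19.8% were lower and 22.6% higher there. Kpna2, an importin alpha known for high levels in dividing cells, read 4207 and 4076 on the Zfx-cko arrays, against 5962 and 6236 on the Zfx-flox arrays (log2 change −0.56 ± 0.06, adjusted p = 0.000123). Kpna1 changed by −0.57 and Kpna4 by −0.25, both past the threshold, while Kpna3 (−0.16 ± 0.06) and Kpna6 (−0.37 ± 0.17) did not pass. Tnpo2, a transportin for cargo such as hnRNP proteins, was a dim gene in HSC, at 88.0 and 88.6 on the Zfx-cko arrays, against 167 and 134 on the Zfx-flox arrays (log2 change −0.68 ± 0.15, adjusted p = 0.00665). Ipo5, a carrier of ribosomal proteins and histones, read 3431 and 3667 on the Zfx-cko arrays, against 4045 and 4326 on the Zfx-flox arrays (log2 change −0.24 ± 0.06, adjusted p = 0.0176). Importin beta 1 itself, Kpnb1, fell by 0.24, and Ipo4, Ipo8 and Ipo7 by 0.38, 0.29 and 0.29. Ipo9, which imports histones H2A and H2B, was an exception: it read 778 and 723 on the Zfx-cko arrays, against 547 and 519 on the Zfx-flox arrays (log2 change 0.48 ± 0.09, adjusted p = 0.00288). Tnpo1 (−0.22 ± 0.08), the SR protein carrier Tnpo3 (−0.19 ± 0.08), Ipo13 (−0.15 ± 0.12) and Ipo11 (0.36 ± 0.13) did not pass.

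All 7 export receptors passed the threshold in HSC, 6 of them lower and Xpo7 higher, beside 42.4% of all genes in either direction. Among the 6 is Nxf1, whose direction in HSC is uncertain because its second probe set was higher (log2 change 0.71 ± 0.14, p adjusted over probe sets 0.00502). Xpo5, the exporter of microRNA precursors, read 138 and 124 on the Zfx-cko arrays, against 240.4 and 216 on the Zfx-flox arrays (log2 change −0.74 ± 0.19, adjusted p = 0.0122). Xpo1, the main exporter of proteins with a leucine-rich signal, read 4077 and 4130.3 on the Zfx-cko arrays, against 5162 and 5094 on the Zfx-flox arrays (log2 change −0.32 ± 0.06, adjusted p = 0.00298). Cse1l, which returns importin alpha to the cytoplasm, changed by −0.52, the actin exporter Xpo6 by −0.31, the mRNA export receptor Nxf1 by −0.28 and Xpo4 by −0.27. Xpo7, an exporter known in mouse erythroid cells for the release of histones from the nucleus, read 4573 and 4337 on the Zfx-cko arrays, against 2013 and 2070.0 on the Zfx-flox arrays, 2.17-fold higher (log2 change 1.12 ± 0.06, adjusted p = 3.88e-06). Both Zfx-cko arrays lay far above both Zfx-flox arrays. The erythroid marker sum, mostly Klf1, was lower in Zfx-cko, as given above. With the mean of all Xpo7 probe sets, most of which lay near the floor, the change was 0.28 and did not pass (adjusted p = 0.265).

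Some HSC calls were lost when 1 HSC array was left out, whereas none was lost when an ESC array was left out. A fit without 1 array has fewer residual degrees of freedom, so a lost call does not show that this array decided it. The log2 change of Nup54, for example, was −0.16 to −0.21 without 1 HSC array, against −0.18 with all arrays. Without HSC Zfx-cko replicate 1, Ipo5, Ipo7, Ipo8, Kpna4, Nup210, Nup54 and Xpo4 no longer passed (adjusted p 0.0653 to 0.166). Leaving out HSC Zfx-cko replicate 2 ended the calls of Ipo7, Kpnb1, Nup210, Nup54, Nxf1, Xpo4, Xpo5 and Xpo6 (adjusted p 0.0728 to 0.133). Without HSC Zfx-flox replicate 1, Ipo7, Kpna4, Kpnb1, Nup210, Nup54, Tnpo2, Xpo4 and Xpo5 no longer passed (adjusted p 0.0509 to 0.134). Leaving out HSC Zfx-flox replicate 2 ended the calls of Ipo4, Ipo5, Ipo7, Ipo8, Kpnb1, Nup210, Nup54, Nxf1, Xpo4 and Xpo6 (adjusted p 0.0514 to 0.208). Of the 8 largest falls, those of Rcc1, Nup205, Nup160, Nup85, Nup188 and Nup214 passed whichever array was left out, and those of Xpo5 and Tnpo2 did not. The rises of Xpo7 and Ipo9 also passed each time. Averaging all probe sets of a gene ended the calls of Tnpo2 (−0.21), Nup188 (−0.32), Ipo5 (−0.28), Xpo1 (−0.13), Nup153 (−0.18), Nup133 (−0.17) and Kpna4 (−0.04). Among the fallers it also ended those of Ipo8 (−0.03), Nup210 (−0.11), Ipo4, Ipo7, Kpnb1 and Nup54. It took Nup214 to −0.29 and turned Nxf1 to 0.22. Newly called with it were Kpna3, Kpna6, Nup50, Nup98, Tnpo1 and Tnpo3, lower, and Ipo11 and Ran, higher. In all 26 of 45 members passed, 23 lower and 3 higher, beside 17.4% and 20.5% of all genes. Without a variance trend in the fit 21 of the 33 calls were left, and Ipo4, Ipo5, Ipo7, Ipo8, Kpna4, Kpnb1, Nup210, Nup54, Nxf1, Xpo1, Xpo4 and Xpo6 did not pass.

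Fewer of these genes changed in ESC. Of the 45 tested members, 10 fell and 2 rose in Zfx-null ESC against Zfx-flox ESC, and 33 did not pass. Among all 12676 genes tested in ESC 14.9% were lower and 15.7% higher, 30.6% in either direction, so the share of members called in either direction lay below that of all genes. The median log2 change was −0.13 over the members and −0.03 over all genes. Nup210 fell most and Kpna4 rose most. The calls of Nup210, Kpna4, Nxf1 and Xpo1 passed in all 22 alternatives. With each array centred on its median 5 members passed, these 4 and Nup85, beside 23.8% of all genes. Without a variance trend these 4 alone passed, beside 19.1% of all genes.

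Nup210 gave the largest change of a member in ESC. It read 360.1 and 367 on the Zfx-null arrays, against 867 and 909.9 on the Zfx-flox arrays, 2.39-fold lower (log2 change −1.26 ± 0.07, adjusted p = 2.53e-05). Both Zfx-null arrays lay below 50% of either Zfx-flox array. Nup210 is an integral membrane nucleoporin known in mouse for its part in muscle and neural differentiation. Its only other probe set lay near the floor, and with the mean of both the change was −0.62. Kpna4, an importin alpha, read 1179 and 1146 on the Zfx-null arrays, against 747 and 727 on the Zfx-flox arrays, 1.57-fold higher (log2 change 0.65 ± 0.06, adjusted p = 0.000182). All its Zfx-null values were above all its Zfx-flox values. The other member that rose was Tnpo1, the receptor of hnRNP A1 and other cargo with a PY-type signal, at 1743 and 1475 on the Zfx-null arrays, against 1364 and 1272 on the Zfx-flox arrays (log2 change 0.28 ± 0.08, adjusted p = 0.0345).

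Of 7 export receptors 4 fell in Zfx-null ESC, beside 14.9% of all genes. Xpo1 read 2458 and 2376 on the Zfx-null arrays, against 3187 and 3499 on the Zfx-flox arrays (log2 change −0.46 ± 0.06, adjusted p = 0.000886). Nxf1, the receptor that carries bulk mRNA out of the nucleus, read 863 and 778 on the Zfx-null arrays, against 1121 and 1126 on the Zfx-flox arrays (log2 change −0.45 ± 0.07, adjusted p = 0.00212). In both genes the Zfx-null arrays were clearly the lower pair. Xpo4, an exporter of the translation factor eIF5A, read 288 and 315 on the Zfx-null arrays, against 351 and 381 on the Zfx-flox arrays (log2 change −0.27 ± 0.09, adjusted p = 0.0451), and Xpo6 read 559 and 574 on the Zfx-null arrays, against 673 and 697 on the Zfx-flox arrays (log2 change −0.27 ± 0.08, adjusted p = 0.0366). Xpo7 stood at 0.02 ± 0.06 and Xpo5 at 0.17 ± 0.19, and neither passed; the Zfx-flox arrays of Xpo5 spread from 433 to 685.

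Of the pore frame 3 of 6 Y complex genes and 1 of 4 inner ring genes fell in ESC, beside 14.9% of all genes. Nup85 read 1187 and 1201 on the Zfx-null arrays, against 1478 and 1531 on the Zfx-flox arrays (log2 change −0.33 ± 0.06, adjusted p = 0.00321). Nup37, a small Y complex subunit, read 1546 and 1269 on the Zfx-null arrays, against 1939.8 and 1618 on the Zfx-flox arrays (log2 change −0.34 ± 0.11, adjusted p = 0.0462). The higher Zfx-null array of Nup37 came close to its lower Zfx-flox array. Nup155, an inner ring protein that contacts the membrane, read 1373 and 1409 on the Zfx-null arrays, against 1564 and 1844 on the Zfx-flox arrays (log2 change −0.29 ± 0.08, adjusted p = 0.0314). Nup153 and Nup43 fell by 0.27 and 0.23. None of the 4 genes of the Ran cycle passed in ESC, with −0.26 ± 0.11 for Rcc1 as the largest change. Among the most abundant members Ran read 7376 and 7962 on the Zfx-null arrays, against 7990.4 and 8579.7 on the Zfx-flox arrays (log2 change −0.11 ± 0.07, adjusted p = 0.276), and Kpna2 read 4132 and 4323 on the Zfx-null arrays, against 4596 and 4856 on the Zfx-flox arrays (log2 change −0.16 ± 0.06, adjusted p = 0.0709). Neither passed. Ipo5 read 3701 and 3974 on the Zfx-null arrays, against 3771 and 3827 on the Zfx-flox arrays (log2 change 0.01 ± 0.06, adjusted p = 0.903). Ranbp1 read 4922 and 4969 on the Zfx-null arrays, against 5409 and 5543 on the Zfx-flox arrays (log2 change −0.15 ± 0.05, adjusted p = 0.0598), and Nup62 read 2644 and 2714 on the Zfx-null arrays, against 2792 and 2836 on the Zfx-flox arrays (log2 change −0.07 ± 0.05, adjusted p = 0.367). None of these 3 passed, and their changes were small. Of 11 import receptors and 5 importin alpha genes none fell, but with 14.9% of all genes lower such small sets say little about a class. The pluripotency sum was 19305 to 20158 in Zfx-null ESC, against 31252 to 32215 in Zfx-flox ESC, and its part in these values was not tested.

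The smaller ESC calls were lost when 1 array of either cell type was left out, since the fit pools the spread over both. Without an HSC array the ESC log2 changes stayed the same, so those calls were lost through the fitted spread and its degrees of freedom. Without ESC Zfx-flox replicate 1, Nup37, Tnpo1, Xpo4 and Xpo6 no longer passed (adjusted p 0.0597 to 0.244). Leaving out ESC Zfx-flox replicate 2 ended the calls of Nup155, Nup43, Tnpo1, Xpo4 and Xpo6 (adjusted p 0.119 to 0.182). Without ESC Zfx-null replicate 1, Nup153, Nup155, Nup43, Tnpo1, Xpo4 and Xpo6 no longer passed (adjusted p 0.0531 to 0.181). Leaving out ESC Zfx-null replicate 2 ended the calls of Nup155, Nup37, Xpo4 and Xpo6 (adjusted p 0.0507 to 0.238). Without HSC Zfx-cko replicate 1, Nup155, Nup37, Tnpo1 and Xpo4 no longer passed (adjusted p 0.0527 to 0.0746). Leaving out HSC Zfx-cko replicate 2 ended the calls of Nup155, Nup37, Tnpo1 and Xpo4 (adjusted p 0.0525 to 0.0745). Without HSC Zfx-flox replicate 1, Nup37, Tnpo1, Xpo4 and Xpo6 no longer passed (adjusted p 0.0504 to 0.0738). Leaving out HSC Zfx-flox replicate 2 ended the calls of Nup37, Tnpo1, Xpo4 and Xpo6 (adjusted p 0.0507 to 0.0738). The log2 change of Tnpo1 was 0.16 without ESC Zfx-null replicate 1. That of Nup37 was −0.20 without ESC Zfx-null replicate 2 and −0.21 without ESC Zfx-flox replicate 1, and that of Nup155 was −0.17 without ESC Zfx-flox replicate 2. The median log2 change of the members in ESC was −0.13 without ESC Zfx-null replicate 1, as with all arrays.

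Across both cell types 8 members were lower in each of Zfx-cko HSC and Zfx-null ESC: Nup153, Nup210, Nup43, Nup85, Nxf1, Xpo1, Xpo4 and Xpo6. Of these 8, the HSC calls of Nup210, Nxf1, Xpo4 and Xpo6 and the ESC calls of Nup153, Nup43, Xpo4 and Xpo6 were lost without single arrays, and Nxf1 was 0.22 in HSC with the mean of its probe sets. Another 22 were lower in HSC and did not pass in ESC, and 2, Nup37 and Nup155, were lower in ESC and did not pass in HSC. Kpna4 was called in opposite directions. In 9 members neither comparison passed. How many of all genes fell in both was not counted, so these counts have no such share beside them. In the separate comparisons 19.8% of all genes tested were lower in HSC and 14.9% in ESC. HSC and ESC arrays share no control samples. A call in one cell type alone does not show a difference, so the HSC effect minus the ESC effect was tested as an interaction. It passed for 21 of 45 members, with 19 differences negative and 2 positive. Among 11175 genes tested this way 35.3% passed, 17.7% with a negative difference and 17.6% with a positive one. With each array centred on its median these shares were 18.5% and 10.7%, and the median of all genes was −0.09 instead of 0.03. Under that centring 18 members had a negative and 2 a positive difference, with a median of −0.37 instead of −0.25.

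**Figure D3:**
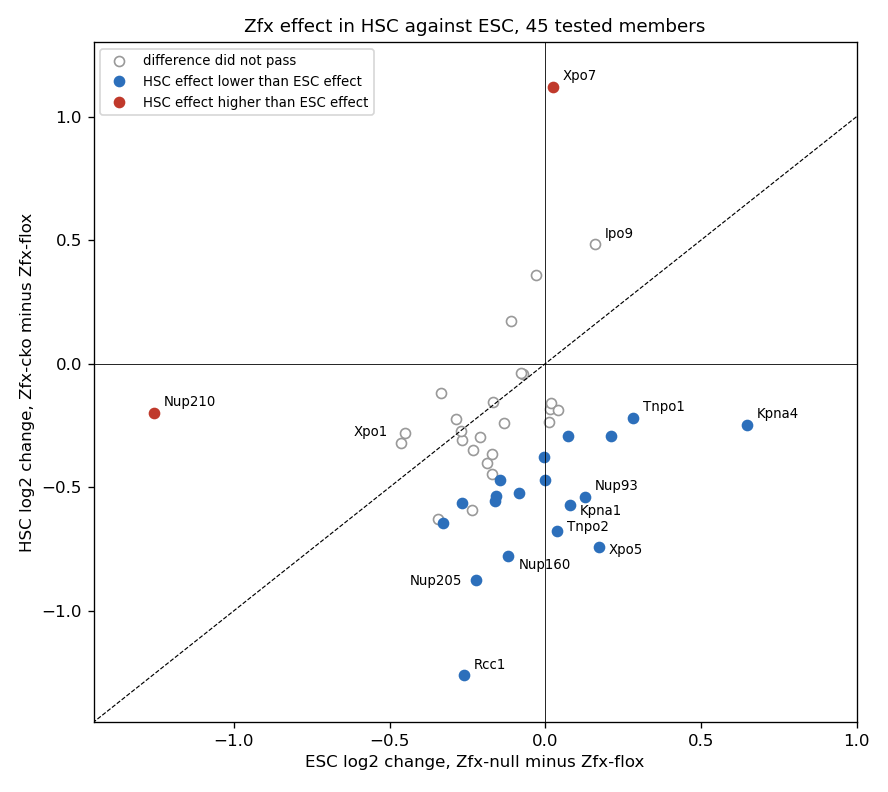
Log2 change in HSC (Zfx-cko minus Zfx-flox, vertical) against that in ESC (Zfx-null minus Zfx-flox, horizontal) for the 45 tested members; the dashed line marks equal change and filled points passed the test of the difference. The 19 blue points lie below the line, Rcc1 lowest, and Xpo7 and Nup210 lie above it.

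Kpna4 alone was called in opposite directions, with 1254 and 1294 in Zfx-cko HSC against 1549 and 1482 in Zfx-flox HSC, and 1179 and 1146 in Zfx-null ESC against 747 and 727 in Zfx-flox ESC (a difference of −0.90 ± 0.09, adjusted p = 0.000164). Its call in HSC was lost without single arrays, as given above, and its change there was −0.04 with the mean of its probe sets. The other probe set of Kpna4 had the opposite sign in HSC and did not pass. Rcc1 fell in HSC, whereas in ESC it read 441 and 381 on the Zfx-null arrays, against 455 and 537 on the Zfx-flox arrays, a change of −0.26 that did not pass (a difference of −0.999 ± 0.16, adjusted p = 0.0017). Nup93 had 902 and 794 in Zfx-cko HSC against 1192 and 1279 in Zfx-flox HSC, and 1539 and 1410.2 in Zfx-null ESC against 1353 and 1344 in Zfx-flox ESC (a difference of −0.66 ± 0.11, adjusted p = 0.00277). Its arrays moved down in HSC and slightly up in ESC, where the change was within the error. For Xpo5 the change was −0.74 in HSC and 0.17 in ESC (a difference of −0.91 ± 0.26, adjusted p = 0.0273), and for Tnpo2 −0.68 and 0.04 (a difference of −0.72 ± 0.21, adjusted p = 0.0303). The difference of Xpo5 was −0.59 without ESC Zfx-flox replicate 1, the array with its lower value. Xpo7 rose in HSC while its 4 ESC arrays lay between 1265 and 1315 (a difference of 1.10 ± 0.08, adjusted p = 4.67e-05). Nup210 fell in both but far more in ESC (a difference of 1.06 ± 0.09, adjusted p = 0.000114). The differences of Kpna1, Kpna4, Nup160, Nup210, Nup93 and Rcc1 passed in all 21 alternatives. With the mean of all probe sets those of Ipo4, Ipo7, Ipo8, Nup133, Nup153, Nup205, Tnpo2 (−0.27) and Xpo7 (0.38) did not pass, that of Kpna4 was −0.55 and that of Nup210 was 0.52. Without a variance trend 7 of the 21 passed.

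Other probe sets of the same genes were compared in HSC, with p adjusted over all tested probe sets. Of 31 members that fell, 22 had another tested probe set. In 10 of these at least 1 was lower too, and in 1, Nxf1, another was higher. In the rest no other probe set passed, and for Ipo8, Kpna4, Nup153, Nup214 and Tnpo2 at least 1 had the opposite sign. Probe set 1439092_at of Nxf1 read 131 and 132 on the Zfx-cko arrays, against 75.0 and 75.0 on the Zfx-flox arrays (log2 change 0.71 ± 0.14, p adjusted over probe sets 0.00502). The 2 probe sets of Nxf1 thus moved apart in HSC, and its direction there is uncertain. Both members that rose had a second higher probe set, 1415682_at for Xpo7 (174 and 217 in Zfx-cko, 115 and 91.8 in Zfx-flox; log2 change 0.83 ± 0.13, p adjusted over probe sets 0.00151) and 1424466_at for Ipo9 (log2 change 0.47 ± 0.09, p adjusted over probe sets 0.00389). Of the 12 members that did not pass, 7 had another probe set that was lower: Kpna3, Nup155, Nup50, Nup62, Nup98, Ran and Tnpo1. Probe set 1455043_at of Tnpo1 read 260.0 and 241 in Zfx-cko and 536 and 628 in Zfx-flox (log2 change −1.17 ± 0.15, p adjusted over probe sets 0.00049). In the other direction, 1429717_at of Ipo11 read 414 and 425 in Zfx-cko and 144 and 159 in Zfx-flox (log2 change 1.39 ± 0.18, p adjusted over probe sets 0.00045), and a dim probe set of Nup62, 1448150_at, was higher (1.15 ± 0.38, p adjusted over probe sets 0.0455). Over all 102 tested probe sets of the members 53 were lower and 7 higher in HSC, where 15.8% of 27022 tested probe sets were lower and 21.1% higher, 36.9% in either direction. In ESC 14 of 103 were lower and 2 higher, against 12.2% and 11.9% of all tested, 24.2% in either direction. In ESC a second probe set was lower for Nup155, Nup85 and Xpo1 among the called members, and none passed against the call of its gene. Of the members that had not passed in ESC, Ipo7, Nup50 and Nup98 had another probe set that was lower, by most for Nup98 1439154_at (242 and 222 in Zfx-null, 361 and 391 in Zfx-flox; log2 change −0.66 ± 0.10, p adjusted over probe sets 0.00259).

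**Figure D4:**
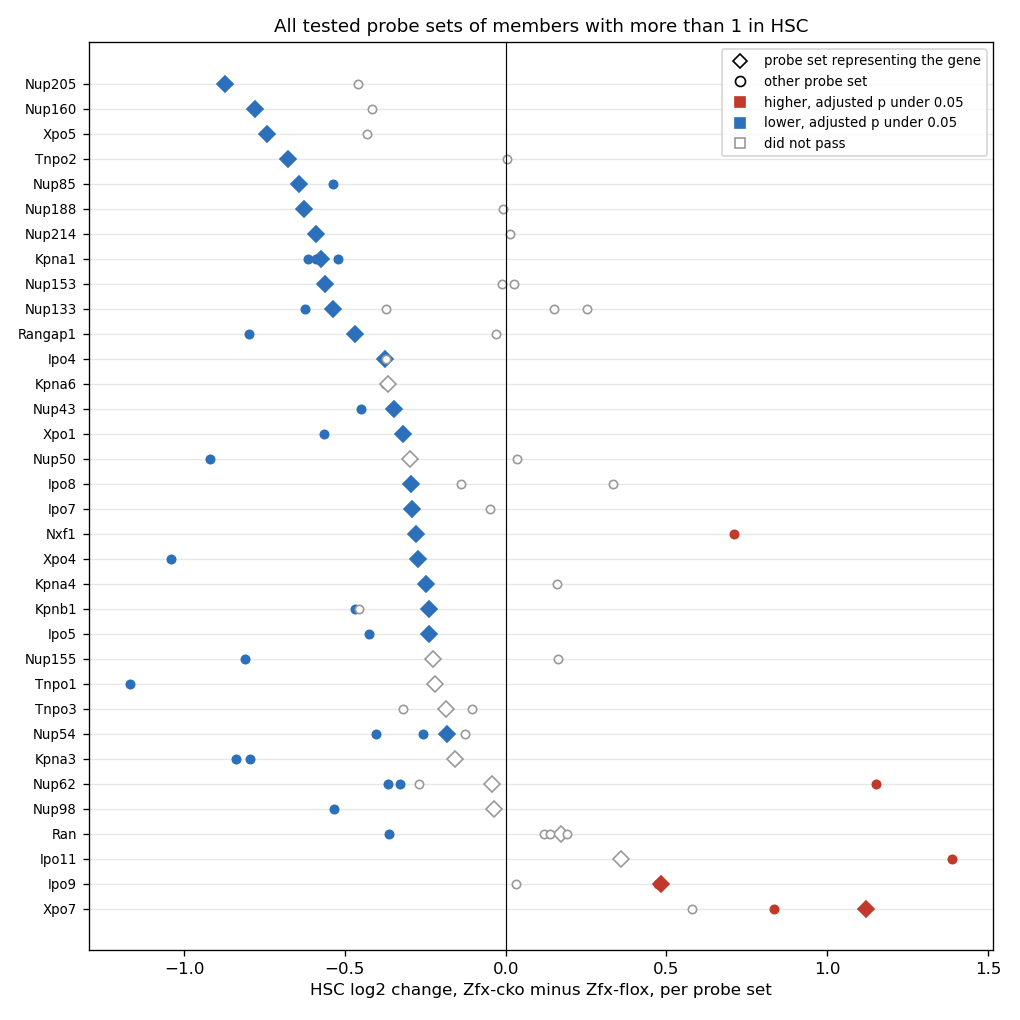
Log2 change in HSC (Zfx-cko minus Zfx-flox) of every tested probe set of the members with more than 1; diamonds are the probe sets that represent a gene and circles the others, filled in colour where p adjusted over probe sets passed 0.05. Kpna1 and Nup85 have close values, whereas several genes, among them Nxf1, Nup62, Ran and Kpna4, have probe sets on both sides of 0.

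Levels were set side by side without a test, because the amplification differed. On the same probe sets and the scale with pseudocount, the Zfx-flox level in HSC was at least 2-fold that in ESC for 2 of 45 members and at most 50% of it for 7. Over 14034 genes these shares were 18.4% and 27.6%. Nup54 (4478 and 4338 in Zfx-flox HSC, 1318 and 1284 in Zfx-flox ESC) and Kpna4 (1549 and 1482 in Zfx-flox HSC, 747 and 727 in Zfx-flox ESC) were the 2 on the high side. Tnpo2 (167 and 134 in Zfx-flox HSC, 675 and 824 in Zfx-flox ESC), Ipo13, Ipo4, Nup188, Rangap1, Xpo6 and Xpo5 were those on the low side. Ipo9 lay just short of them, 1.97-fold lower on this scale. The median log2 ratio of HSC over ESC was 0.14 over the members and −0.20 over those genes.

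Most nucleoporin genes outside the naming pattern were lower in HSC too, in a list chosen with earlier results of these data known. Of 12 tested, 9 fell and 1 rose in Zfx-cko HSC, beside 19.8% of all genes lower and 22.6% higher, with a median of −0.42. The largest falls were those of Ahctf1 (828 and 920.1 in Zfx-cko, 2201 and 2171 in Zfx-flox; log2 change −1.31 ± 0.07, adjusted p = 5.85e-06), which starts pore assembly on chromatin, and Ranbp2 (1559 and 1555 in Zfx-cko, 2870.4 and 3076 in Zfx-flox; log2 change −0.93 ± 0.07, adjusted p = 1.58e-05), the protein of the cytoplasmic filaments. The membrane nucleoporin Pom121 followed at −0.60 ± 0.06, and Seh1l, a Y complex subunit, rose (log2 change 0.30 ± 0.07, adjusted p = 0.00866). In ESC 4 of the 12 fell and 0 rose, with a median of −0.08. Of all genes 14.9% were lower and 15.7% higher there, 30.6% in either direction. Pom121 fell most there (1641 and 1645 in Zfx-null, 2495 and 2359.9 in Zfx-flox; log2 change −0.56 ± 0.06, adjusted p = 0.000243), followed by Ahctf1 (−0.36 ± 0.07) and the membrane protein Ndc1 (−0.36 ± 0.07).

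Transport cofactors outside the pattern numbered 12 tested, of which 4 fell and 1 rose in HSC, near the 42.4% of all genes called there, with a median of −0.09. The falls were led by Rangrf (614 and 656 in Zfx-cko, 1687 and 1471 in Zfx-flox; log2 change −1.29 ± 0.08, adjusted p = 8.97e-06), a Ran-binding protein, the tRNA exporter Xpot (−0.64 ± 0.06) and Ranbp3, a cofactor of Xpo1 (−0.31 ± 0.09). The lamin gene Lmnb2 rose (log2 change 0.48 ± 0.12, adjusted p = 0.013). In ESC 6 of the 12 fell and 0 rose, beside 14.9% of all genes lower and 15.7% higher, with a median of −0.28: Nemp1 (243 and 202 in Zfx-null, 535 and 437 in Zfx-flox; log2 change −1.08 ± 0.25, adjusted p = 0.0118), a protein of the inner nuclear membrane, the exportin relative Ranbp17 (−0.67 ± 0.19) and Rangrf (−0.59 ± 0.08) changed most. Of 20 mRNA export factors, which share Gle1 and Rae1 with the nucleoporin list, 9 fell and 3 rose in HSC, beside 19.8% and 22.6% of all genes, with a median of −0.06. Alyref, an adaptor that hands mRNA to Nxf1, fell (−0.80 ± 0.10), as did the THO complex genes Thoc1 (−0.66 ± 0.06) and Thoc7 (−0.56 ± 0.06). Nxt2 and Nxt1, cofactors of Nxf1, rose by 1.07 and 0.43, and Thoc2 by 0.71. In ESC 3 of the 20 fell and 1 rose, below the 30.6% of all genes called there, with a median of −0.06. The helicase Ddx39b (−0.35 ± 0.08), Thoc6 (−0.30 ± 0.08) and Thoc7 (−0.20 ± 0.06) fell, and Thoc1 rose (1192 and 1091 in Zfx-null, 872 and 856 in Zfx-flox; log2 change 0.39 ± 0.06, adjusted p = 0.00212).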

How the data were processed

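The deposited values are linear probe set intensities, which the authors obtained in GCOS 1.4, according to the submitters' processing notes; summarisation settings were not given in the sources used here. All 8 columns have a trimmed mean (2% off either end) of 250, and 0 columns lacked a sample. Arrays give no counts, and precision depends on their number. Genes came from the 34945 of 45101 probe sets with 1 symbol in the platform annotation; RefSeq changed 0 member symbols. The 4 group means of log2(intensity + 14.2) were fitted over every probe set but 64 controls (limma 3.58.1, R 4.3.3, eBayes with trend, 4 residual degrees of freedom). Genes reaching the 40th percentile of mean signal in the cell type were tested, with Benjamini-Hochberg adjustment over genes and a threshold of 0.05. The code was tested on simulated data. Figures used matplotlib 3.10.9.

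Members with full values were up to 8 per direction with the largest passing change and the 6 of highest mean, up to 5 per direction for the difference, and up to 3 per direction of each other list, beside members whose probe sets disagree. Members and lists were chosen with earlier results of these data known. Alternatives changed the pseudocount, scaling, filter, probe set choice, variance model, samples fitted, replicate block, each array in turn and the family for the adjustment.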

Additional observations from a re-analysis of the deposited data

Results flagged for a closer look

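The 21 members whose change differed between HSC and ESC in limma's test of the difference stand here with the HSC effect minus the ESC effect on the log2 scale. No test for single outlying arrays applied, since each group held 2. Xpo7 (1.10) and Nup210 (1.06) had positive differences. The 5 most negative were Rcc1 at −0.999 (−1.26 in HSC, −0.26 in ESC), Xpo5 at −0.91 (−0.74 in HSC, 0.17 in ESC), Kpna4 at −0.90 (−0.25 in HSC, 0.65 in ESC), Tnpo2 at −0.72 (−0.68 in HSC, 0.04 in ESC) and Nup93 at −0.66 (−0.54 in HSC, 0.13 in ESC). Next came Nup160 at −0.66 (−0.78 in HSC, −0.12 in ESC), Kpna1 at −0.65 (−0.57 in HSC, 0.08 in ESC), Nup205 at −0.65 (−0.87 in HSC, −0.22 in ESC), Ipo8 at −0.51 (−0.29 in HSC, 0.21 in ESC), Tnpo1 at −0.50 (−0.22 in HSC, 0.28 in ESC), Rangap1 at −0.47 (−0.47 in HSC, −0.0012 in ESC), Cse1l at −0.44 (−0.52 in HSC, −0.08 in ESC) and Kpna2 at −0.40 (−0.56 in HSC, −0.16 in ESC). The smallest were Nup133 at −0.38 (−0.54 in HSC, −0.16 in ESC), Ipo4 at −0.37 (−0.38 in HSC, −0.0034 in ESC), Ipo7 at −0.36 (−0.29 in HSC, 0.07 in ESC), Ranbp1 at −0.32 (−0.47 in HSC, −0.15 in ESC), Nup85 at −0.31 (−0.64 in HSC, −0.33 in ESC) and Nup153 at −0.30 (−0.56 in HSC, −0.27 in ESC).

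Some of these differences were lost when 1 array was left out, in fits with fewer residual degrees of freedom. Without ESC Zfx-flox replicate 1, Ipo4, Ipo7, Nup153 and Tnpo2 no longer passed (adjusted p 0.0595 to 0.112). Leaving out ESC Zfx-flox replicate 2 ended the calls of Ipo4, Nup133 and Rangap1 (adjusted p 0.0748 to 0.105). Without ESC Zfx-null replicate 1, Ipo4, Nup133 and Xpo5 no longer passed (adjusted p 0.0813 to 0.111). Leaving out ESC Zfx-null replicate 2 ended the calls of Ipo4, Ipo7, Nup153, Rangap1, Tnpo2 and Xpo5 (adjusted p 0.0554 to 0.117). Without HSC Zfx-cko replicate 1, Ipo4, Ipo7, Nup153, Tnpo2 and Xpo5 no longer passed (adjusted p 0.0561 to 0.114). Leaving out HSC Zfx-cko replicate 2 ended the calls of Ipo7, Nup133, Nup153, Nup85, Rangap1, Tnpo2 and Xpo5 (adjusted p 0.0608 to 0.121). Without HSC Zfx-flox replicate 1, Ipo4, Ipo7, Nup133, Nup153, Nup85, Rangap1, Tnpo2 and Xpo5 no longer passed (adjusted p 0.051 to 0.0982). Leaving out HSC Zfx-flox replicate 2 ended the calls of Ipo4, Ipo7, Nup133, Nup153, Nup85, Rangap1 and Xpo5 (adjusted p 0.0515 to 0.127).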

How the results depend on the processing

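In ESC 12 members were called, against 5 with median centring, 4 without a variance trend and 6 to 11 with 1 array left out. Of the 33 in HSC, 21 passed without a trend, and 23 to 36 members passed with 1 array left out. Of the 21 differences, 7 passed without a trend, and 13 to 20 members passed with 1 array left out, the fewest without HSC Zfx-flox replicate 1. Without a trend the share of all genes called was also lower, at 33.2% in HSC, 19.1% in ESC and 20.8% for the difference; the cause was not tested. With no filter on dim probe sets these shares were 28.8%, 20.5% and 22.9%. With the filter at the 60th percentile they were 54.3%, 39.2% and 43.7%, beside 34, 13 and 22 of 45 members. In HSC 26.1% of all genes and 32 members were lower with that filter. Deviations of same-numbered arrays from their group means correlated at 0.339 in ESC and 0.079 in HSC over 22829 probe sets. The labels give replicate numbers without saying that equal numbers belong together, and the main fit did not pair them. Whether same-numbered ESC arrays shared their handling was not tested. With a replicate block 17 members were called in ESC, 40 in HSC and 29 for the difference. The shares of all genes also went up with it, to 36.2%, 47.4% and 41.5%. With the mean of all probe sets the sign turned for Nxf1 in HSC (0.22) and for the differences of Ipo8 (0.10) and Nup153 (0.065), which had passed. Signs also turned in at least 1 alternative for several members that had not passed, among them Nup62, Nup98 and Ran in HSC and Ipo5, Xpo5 and Xpo7 in ESC. Ipo5 in ESC was −0.077 with the mean of its probe sets, and −0.038 to 0.065 with 1 array left out. Ran in HSC was −0.36 with probe sets lacking the suffixes _s_at and _x_at preferred (adjusted p = 0.00312). Nup62 in HSC was 0.044 after quantile normalization of the HSC arrays, 0.045 after that of all 8, 0.029 with the mean of its probe sets, and −0.33 with probe sets lacking those suffixes preferred (adjusted p = 0.00221). In HSC 15 of 33 calls passed in all 22 alternatives, and 11 of the 12 members that had not passed did so in at least 1. Adjusting over probe sets, chosen after seeing the data, gave 33 members in HSC, 10 in ESC and 20 differences.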
